A study of Mus musculus with 9 samples.

Results

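The RNA subunit of RNase P (Rpph1), the RNA subunit of RNase MRP (Rmrp) and the ribosomal RNA precursor (Rn45s) were examined in the fetal mouse brain after an early binge exposure to alcohol. These 3 loci, out of 27095 in the deposited expression table, were chosen by their higher values in EtOH-exposed unaffected offspring than in control offspring, so their values in that comparison are a description and support no claim. Each symbol belonged to 1 locus that carried no other gene name. Their values in EtOH-exposed affected offspring were not used in the choice, but the comparisons with that group share the control or the unaffected values that were.

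All fetuses were wild-type mice, C57BL/6 in the labels and C57BL/6J in the methods, collected on gestational day 17. The dams had been treated on gestational day 7 by intraperitoneal injection. Mothers of the control offspring (3 fetuses) received lactated Ringer's solution, and mothers of all exposed offspring received EtOH at a dose of 2.9 g/kg. Exposed fetuses free of the scored eye and craniofacial defects formed the unaffected group (3 fetuses), and exposed fetuses with defects formed the affected group (3 fetuses). The labels call the tissue fetal brain and the methods call it cortex. All 8 fixed markers of cortical projection neurons and progenitors, among them Emx1 and Neurod6, had a mean of at least 1 FPKM. So did 5 of 5 fixed markers of the ventral telencephalon and 3 of 4 of the thalamus. At that limit, the markers cannot tell fetal brain from cortex. FPKM are fragments per kilobase of a gene's exons and per 1000000 mapped fragments, and the authors deposited 1 value per group and locus that pools the 3 fetuses. The spread between fetuses could therefore not be computed, no test was made, and each value below is the authors' group value. In bulk tissue, more cells that carry an RNA and more RNA per cell cannot be told apart. The library kit selects RNA with a poly(A) tail, so values of RNAs without a tail also depend on how much passed that selection. How much passed in each group is not known.

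RNase P and RNase MRP are related enzymes, each built on a catalytic RNA that carries a largely shared set of protein subunits. RNase P removes the 5′ leader of precursor tRNAs, while RNase MRP cuts the ribosomal RNA precursor in the nucleolus and has a known part in mitochondrial RNA metabolism. Both RNAs are short, are made by RNA polymerase III from promoters upstream of the gene and carry no poly(A) tail in their mature form. Mutations of the human RMRP gene cause cartilage-hair hypoplasia. The 45S precursor is made by RNA polymerase I from repeated genes and is cut into the 18S, 5.8S and 28S ribosomal RNAs, most copies of which are absent from the assembled mouse chromosomes.

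The sequences below are shown because the annotation of other genes overlaps both small RNA genes, and the library kit, which selects poly(A) RNA and does not mark strand, cannot separate reads of opposite strands. In the mouse assembly GRCm38 (mm10), the Rmrp locus lay at chr4:43492785-43493059 on the minus strand, and the first exon of a Ccdc107 transcript of GENCODE M21 runs through it on the opposite strand. Below is the Rmrp ribozyme transcript of GENCODE M21 (chr4:43492788-43493058, minus strand, 271 bases, 64.2% G and C), 5′ to 3′, in which the capitals mark the 124 bases that this exon covers.
Rmrp: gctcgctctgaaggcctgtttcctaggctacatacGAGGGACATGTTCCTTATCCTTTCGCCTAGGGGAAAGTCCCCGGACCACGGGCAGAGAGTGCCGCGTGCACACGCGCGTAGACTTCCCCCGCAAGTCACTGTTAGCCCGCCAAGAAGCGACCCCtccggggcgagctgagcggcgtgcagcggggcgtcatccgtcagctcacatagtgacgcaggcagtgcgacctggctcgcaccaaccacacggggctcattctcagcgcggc

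The Rpph1 locus lay at chr14:50807447-50807771 on the minus strand, and 233 of its 325 bases are also annotated as the first exon of a Ccnb1ip1 transcript, from the next gene on the same strand. The ends of the GENCODE M21 Rpph1 RNA that this exon leaves uncovered are given, 5′ to 3′, for chr14:50807733-50807767 and chr14:50807449-50807499.
Rpph1 5′ end: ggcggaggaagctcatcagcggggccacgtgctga
Rpph1 3′ end: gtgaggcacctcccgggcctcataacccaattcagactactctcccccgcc

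The Rn45s locus lay at chr17:39842997-39848829 and spans 5833 bases. RefSeq places Rn18s-rs5, a gene copy related to 18S ribosomal RNA, at chr17:39846354-39848202, which is 31.7% of the Rn45s locus. GENCODE M21 annotates the same stretch on the minus strand as an rRNA transcript and further places the noncoding transcripts Gm26917, Gm42418 and AY036118 in the interval. Reads of ribosomal repeats can match several places, so the level of Rn45s also depends on how the authors' software shared such reads. The plus strand of that stretch begins, at chr17:39846353-39846412, as follows.
Rn45s: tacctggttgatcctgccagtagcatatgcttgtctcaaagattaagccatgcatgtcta

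The stretches upstream of both small RNA genes could be read in part from RefSeq promoter windows of their neighbours (GRCm38.p6), because Parp2 and Ccdc107 start close by on the opposite strand. In the direction of Rpph1, the 69 bases before its start (chr14:50807772-50807840) and 30 bases farther upstream (chr14:50807849-50807878) read as given below. For Rmrp, the window searched was chr4:43493115-43493414, which leaves out the last 55 bases before the RNA starts, and its stretch before Ccdc107 (chr4:43493115-43493339) is printed. Capitals mark matches, on either strand, to the octamer ATGCAAAT or to TTATA, part of a TATA element. Both motifs were picked after these windows had been read.
Rpph1 upstream: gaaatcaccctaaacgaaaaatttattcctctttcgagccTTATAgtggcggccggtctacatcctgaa
Rpph1 octamer: gggtagagcgcATGCAAATtacgcgctgtg
Rmrp upstream: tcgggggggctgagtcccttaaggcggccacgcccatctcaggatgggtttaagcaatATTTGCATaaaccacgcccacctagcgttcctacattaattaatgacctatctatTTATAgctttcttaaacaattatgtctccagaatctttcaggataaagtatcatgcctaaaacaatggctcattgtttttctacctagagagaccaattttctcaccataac

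The octamer, the binding motif of POU-domain factors such as Pou2f1, lay 88 bases before the Rpph1 start on the strand of Rpph1 and 214 bases before the Rmrp start on the other strand. Of 32851 promoter windows of 300 bases in the RefSeq table, 570 (1.74%) hold it on either strand. TTATA lay 24 bases before the Rpph1 start and 162 bases before the Rmrp start, and 24.9% of the windows hold it. These matches describe letters in the windows and say nothing of binding, and the bases right before Rmrp were not searched.

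**Figure D1:**
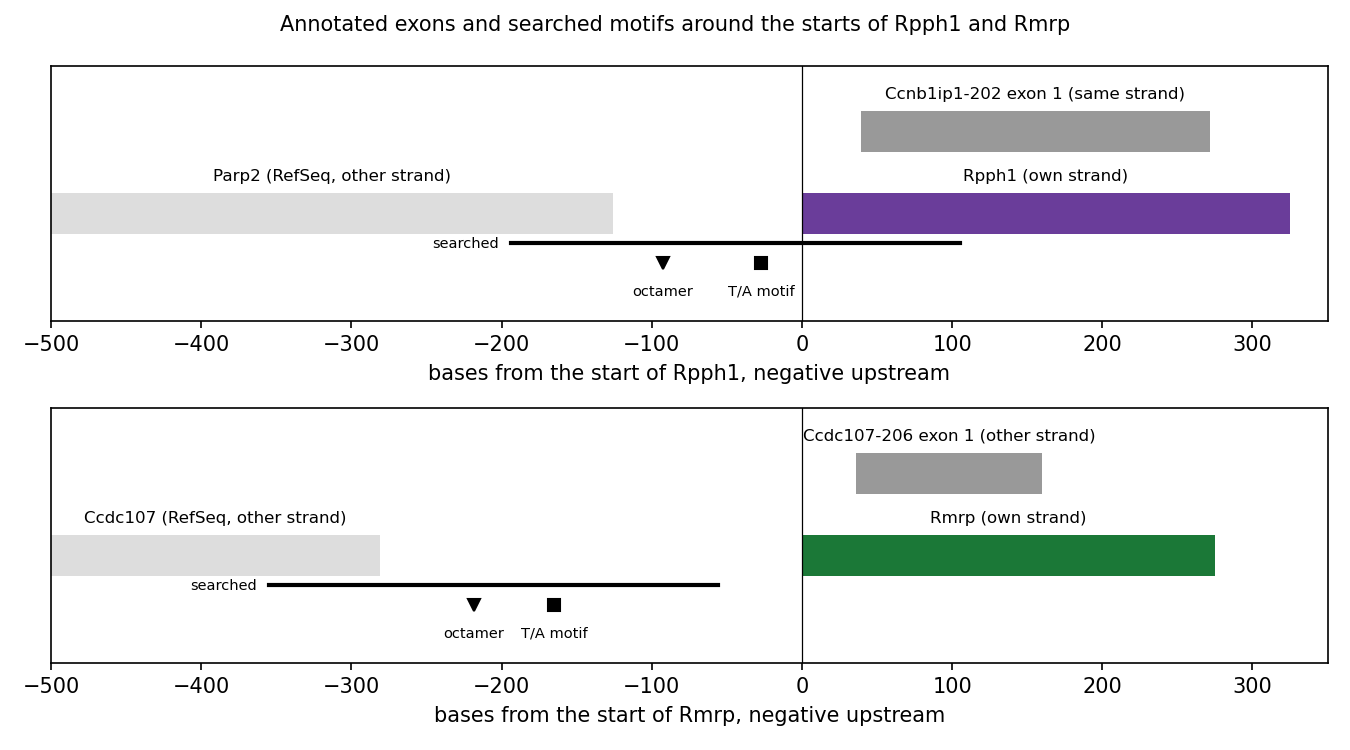
Annotated exons (bars) and motif matches (markers) along the distance in bases from the start of Rpph1 and of Rmrp, drawn in the direction of each RNA, with a line under the bars for the window searched. The octamer and the T/A motif (TTATA) lie 88 and 24 bases before Rpph1, and 214 and 162 bases before Rmrp, whose last 55 upstream bases were not covered.

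Rpph1 was listed at 6.32 FPKM in control, 18.6 FPKM in unaffected and 10.3 FPKM in affected offspring. The unaffected value was thus the highest and the control value the lowest, at a ratio of 2.94. On the scale of log2(FPKM + 0.1), used for all differences, unaffected minus control was 1.54. The affected value was 1.63 times the control value, a log2 difference of 0.69, and affected minus unaffected was -0.85.

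Rmrp was listed at 16.2 FPKM in control, 37.6 FPKM in unaffected and 19.2 FPKM in affected offspring. The unaffected value stood apart, while the affected value lay close to control. Unaffected minus control was 1.21, a ratio of 2.33. Affected minus control was 0.25, a ratio of 1.19, and affected minus unaffected was -0.97.

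Rn45s was listed at 311 FPKM in control, 639 FPKM in unaffected and 381 FPKM in affected offspring. The order of the groups was again control, affected and unaffected from low to high. Unaffected minus control was 1.04, a ratio of 2.06, affected minus control was 0.29, a ratio of 1.23, and affected minus unaffected was -0.75.

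Measured from control, the affected value lay 32.3% of the way to the unaffected value for Rpph1, 21.4% for Rn45s and 14.2% for Rmrp. In every group Rn45s had the highest level per length and Rpph1 the lowest. Rpph1 stood to Rmrp at a ratio of 0.39 in control offspring, 0.49 in the unaffected and 0.54 in the affected group, so the RNA of RNase P stood nearer to that of RNase MRP in both exposed groups. The ratio of Rmrp to Rn45s stayed between 0.050 and 0.059. Cufflinks divides by a length shortened by the fragment size, which weighs most on loci as short as Rpph1 and Rmrp, so levels between the members carry that uncertainty.

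**Figure D2:**
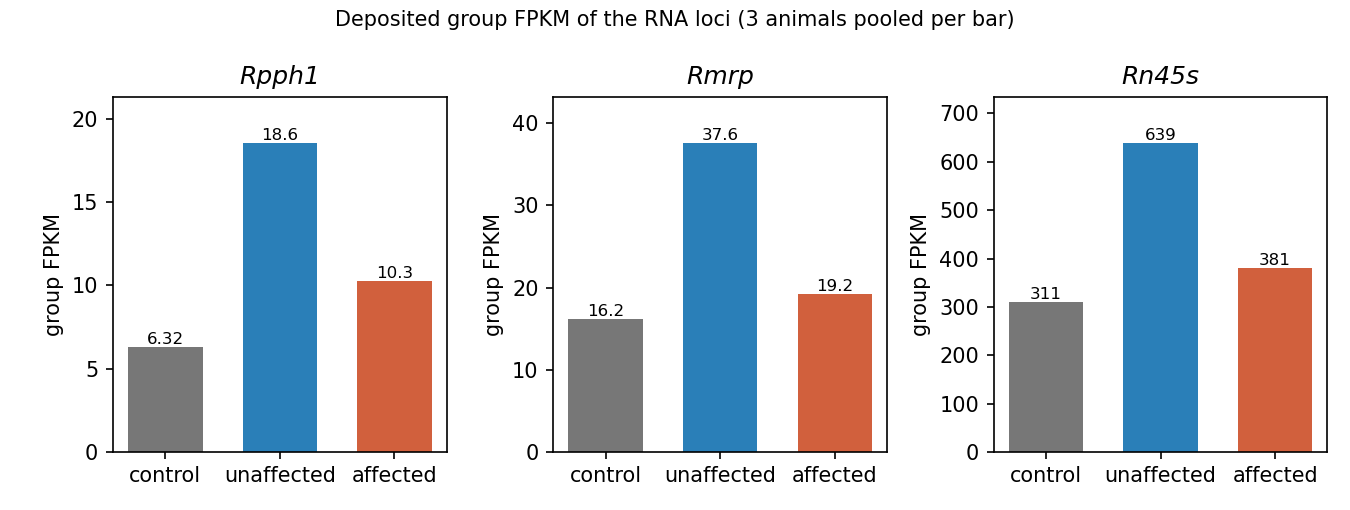
Group FPKM (vertical axes, each from 0) of Rpph1, Rmrp and Rn45s in control, unaffected and affected offspring, with 3 fetuses pooled in each bar and no error computed. In each panel the unaffected bar is the tallest and the control bar the lowest.

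Among the 15548 loci with a mean of at least 1 FPKM over the 3 groups, 382 (2.46%) were at least 1.5-fold higher in unaffected than in control offspring and 479 (3.08%) at least 1.5-fold lower. All 3 RNA loci were in the first set, as their choice required. By size of the difference Rpph1 stood 67th from the top, Rmrp 108 and Rn45s 144 among the 15548 loci. The lower and upper quartiles of this difference over all these loci were -0.11 and 0.11.

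In affected against control offspring, 532 of the 15548 loci (3.42%) were at least 1.5-fold higher and 468 (3.01%) at least 1.5-fold lower. Of the 3 RNA loci, Rpph1 was past 1.5-fold, and Rmrp and Rn45s were higher by less. In affected against unaffected offspring, 1070 loci (6.88%) were at least 1.5-fold higher and 764 (4.91%) at least 1.5-fold lower, and the latter held all 3 RNA loci. This comparison uses the unaffected values by which the loci were chosen, so these counts are given as a description.

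The scaling of the groups bears on these values. The FPKM of all loci summed to 1683940 for control offspring, 2124820 for the unaffected group and 1716610 for the affected group. Unnamed loci of 40 to 157 bases with very high FPKM made up much of these sums. Of 19 unnamed loci with a mean of at least 10000 FPKM, a set picked after its values were seen, 12 were highest in unaffected offspring and 10 had the order control, affected, unaffected of the RNA loci. Their median difference was 0.48 for unaffected minus control and 0.13 for affected minus control. With FPKM divided by the group's sum without Rn45s, the median of all loci moved by -0.32 for unaffected minus control, and the RNA loci stood at 1.20 (Rpph1), 0.88 (Rmrp) and 0.70 (Rn45s) against an overall median of -0.32. For affected minus unaffected the same division moved the overall median by 0.29, and Rpph1 at -0.54 and Rn45s at -0.44 then fell short of 1.5-fold while Rmrp at -0.66 did not.

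Read support for the small RNAs, taken as an upper limit, was low beside that of Rn45s. FPKM times the length of the locus gives the most fragments that a value can stand for, per 1000000 on the deposited scale. This upper limit came to 2.05 fragments for Rpph1 in control offspring, 6.03 in the unaffected and 3.34 in the affected group. The limits for Rmrp were 4.44, 10.3 and 5.28 in the same order. Rn45s stood on more fragments, with limits of 1813, 3728 and 2223. The number of mapped fragments per library is not given in the sources used here, so no counting interval could be set on these values.

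Short loci in this table scattered widely. Apart from Rpph1 and Rmrp, 39 named loci of at most 600 bases had a mean of at least 1 FPKM, and 18 of them, mostly microRNA genes, were listed at 0 in 1 or 2 groups. Over the 21 that were above 0 in every group, the median difference was 0.08 for unaffected minus control, with 5 at least 1.5-fold higher and 3 at least 1.5-fold lower, and the values ran from -1.49 to 1.51. The value of Rpph1, 1.54, lay just above that range and that of Rmrp, 1.21, inside it. For affected minus control the same 21 loci had a median of -0.47, with 2 at least 1.5-fold higher and 7 at least 1.5-fold lower, whereas Rpph1 and Rmrp were above 0. Whether the length of the loci has a part in the members' values was not tested.

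**Figure D3:**
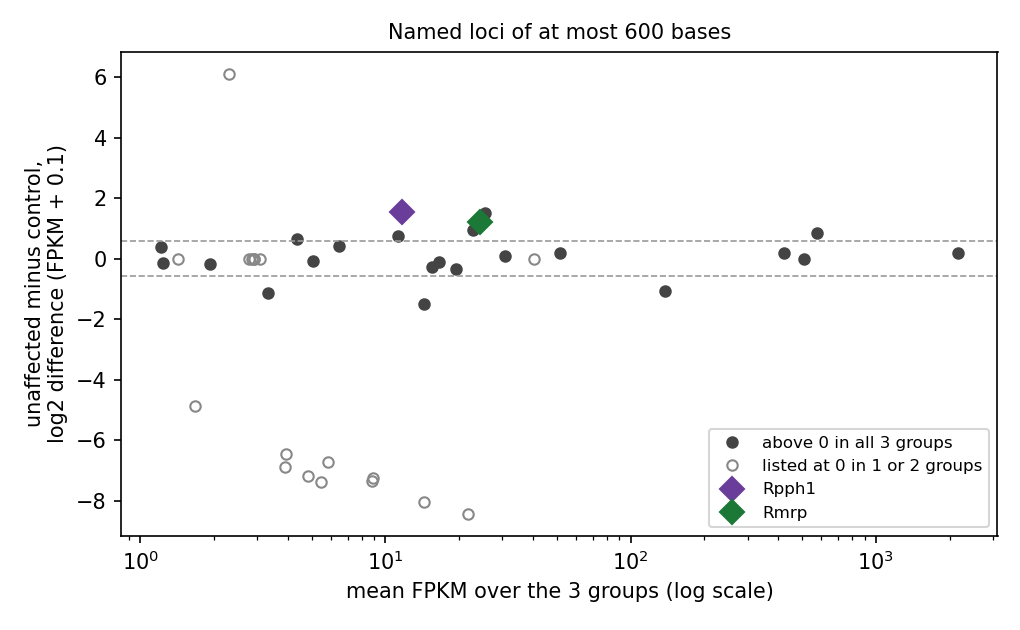
Unaffected minus control as a difference of log2(FPKM + 0.1) (vertical axis) against mean FPKM on a log scale (horizontal axis) for named loci of at most 600 bases, with dashed lines at 1.5-fold. Rpph1 (1.54) and Rmrp (1.21) lie at the upper edge of the 21 loci that were above 0 in all groups, while open points are loci listed at 0 in 1 or 2 groups.

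Next, the protein subunits that RNase P and RNase MRP largely share were examined. All 11 had a mean of at least 1 FPKM, and 0 of 11 was past 1.5-fold in any of the 3 comparisons. Over all loci the share past it was 2.46% to 6.88% per comparison and direction. At such shares a list this short holds few loci or none. Pop4, a subunit that contacts the RNA, was listed at 70.9 FPKM in control, 83.0 FPKM in unaffected and 62.5 FPKM in affected offspring. Rpp21, a subunit of RNase P, was listed at 51.4, 61.5 and 42.9 FPKM in the same order of groups. Pop7, which pairs with Rpp25, was listed at 33.9, 39.1 and 30.5 FPKM, and Rpp30 at 27.4, 29.6 and 23.1 FPKM.

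In 8 of 11 subunits the unaffected value was the highest, as for the RNAs, but the differences were small. The median of unaffected minus control was 0.09, with values from -0.05 (Rpp25) to 0.26 (Rpp21), beside 0.01 over all loci. The groups differed from the RNAs in the place of the affected value. In 10 of 11 subunits it was the lowest of the 3, whereas for each RNA it lay above control. The median of affected minus control was -0.24, beside 0.02 over all loci, and the exception was Pop1, the largest subunit, at 5.39 FPKM in control, 5.69 FPKM in unaffected and 5.98 FPKM in affected offspring. Divided by the sums without Rn45s, the subunit medians became -0.24 for unaffected minus control and -0.27 for affected minus control, so the sign of the former depends on the scaling. Affected minus unaffected went from a median of -0.36 to -0.05, so the counts by order of the groups rest on the deposited scaling. The share of all loci with these orders was not computed.

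**Figure D4:**
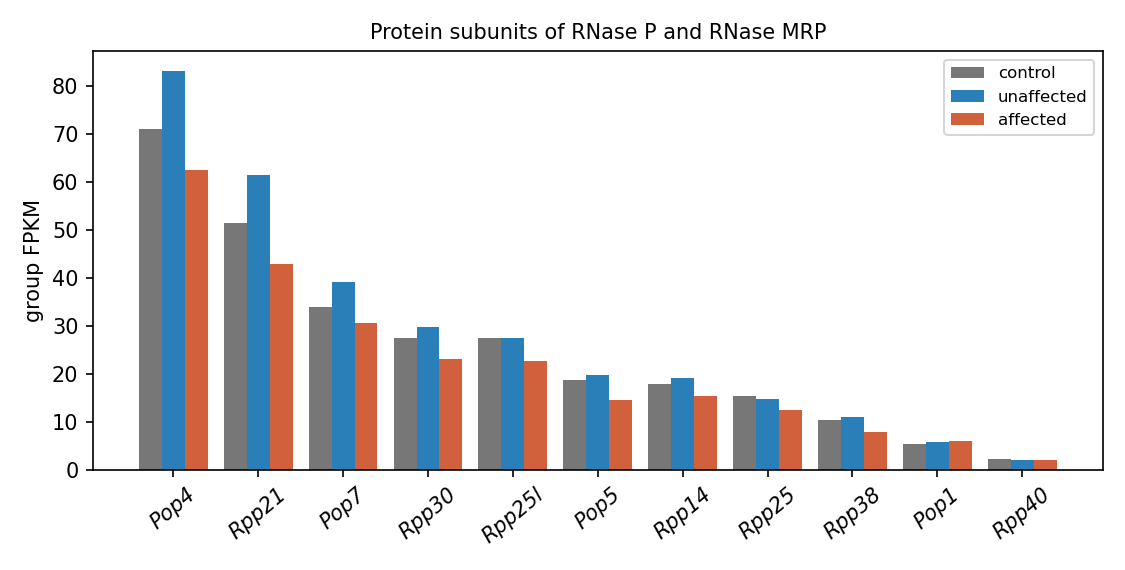
Group FPKM (vertical axis) of the 11 protein subunits of RNase P and RNase MRP in control, unaffected and affected offspring, ordered by mean level. The affected bar is the lowest in 10 of 11 subunits, the exception being Pop1.

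The list of RNA polymerase III and its factors includes the SNAPc complex and Pou2f1, which act on promoters of the Rpph1 type. Its 30 members held 0 past 1.5-fold in any comparison, beside 2.46% to 6.88% of all loci per comparison and direction. Their medians were -0.02 for unaffected minus control, 0.01 for affected minus control and -0.01 for affected minus unaffected. Ssb, the La protein that binds new RNA polymerase III transcripts, was listed at 126 FPKM in control, 134 FPKM in unaffected and 114 FPKM in affected offspring. Maf1, a repressor of RNA polymerase III, was listed at 74.1, 79.0 and 67.0 FPKM. Gtf3c6, a subunit of TFIIIC, was listed at 54.8, 54.2 and 48.7 FPKM, and Crcp, a subunit of the polymerase, at 43.0, 45.9 and 36.0 FPKM.

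Few other products of RNA polymerase III could be compared. Of the fixed list, Bc1, Vaultrc5 and Rnu6 were matched in the table by name, and the others, such as Rn7sk, were not matched. Bc1, a neuronal RNA, was listed at 31.6 FPKM in control, 27.4 FPKM in unaffected and 19.8 FPKM in affected offspring, with affected minus control at -0.67. Its order of groups was thus not that of Rpph1 and Rmrp, but its deposited locus spans 672333 bases, far more than this short RNA. Vaultrc5, an RNA of the vault particle, was listed at 0.087, 0.245 and 0.126 FPKM, an order like that of Rpph1 but at a very low level, and Rnu6 was listed at 0 in all groups.

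Other structured noncoding RNAs gave no common picture. Of 14 loci, 6 had a mean of at least 1 FPKM and 4 were listed at 0 in all groups. Scarna2, a Cajal body RNA, was listed at 106 FPKM in control, 50.1 FPKM in unaffected and 258 FPKM in affected offspring. Rnu73b, a small nucleolar RNA, was listed at 24.4, 113 and 16.4 FPKM. Scarna17 was listed at 0, 0 and 121 FPKM, Scarna10 at 0, 23.2 and 49.1 FPKM, and the minor spliceosomal RNAs Rnu11 at 8.67, 0 and 3.17 FPKM and Rnu12 at 2.64, 2.30 and 0.812 FPKM. Of these 6 RNAs, Scarna2, Scarna17 and Scarna10 were highest in affected offspring, Rnu11 and Rnu12 in control and Rnu73b in unaffected offspring. The deposited loci of Rnu73b (4729 bases) and Scarna10 (23621 bases) are longer than such RNAs. Terc, the RNA of telomerase, had the order of the members at 0.654 FPKM in control, 1.02 FPKM in unaffected and 0.698 FPKM in affected offspring, below the mean of 1 FPKM.

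For Rn45s, the factors of ribosomal RNA synthesis were examined. Of 15 members of the RNA polymerase I list, 0 was past 1.5-fold against control in either exposed group. The share of all loci past it against control was 2.46% to 3.42% per group and direction. List medians were 0.07 for unaffected and 0.00 for affected offspring. Polr1d, shared with RNA polymerase III, was listed at 147 FPKM in control, 154 FPKM in unaffected and 112 FPKM in affected offspring. Ubtf, which binds the ribosomal DNA, was listed at 41.5, 41.8 and 49.2 FPKM, Polr1c at 42.3, 46.5 and 33.3 FPKM, and Znrd1 at 39.6, 45.0 and 33.4 FPKM. Polr1a, the largest subunit of the polymerase, was listed at 4.77, 3.98 and 6.28 FPKM. It was lowest in unaffected offspring, where Rn45s was highest, and was the member past 1.5-fold in affected against unaffected offspring (0.64). In that comparison 6.88% of all loci were at least 1.5-fold higher.

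Among 51 factors that process the ribosomal RNA precursor, 0 was past 1.5-fold against control in either exposed group. The share of all loci past it against control was 2.46% to 3.42% per group and direction. Medians of the 51 factors were 0.06 for unaffected minus control, -0.04 for affected minus control and -0.11 for affected minus unaffected. Npm1, a nucleolar chaperone, was listed at 533 FPKM in control, 569 FPKM in unaffected and 504 FPKM in affected offspring. Nhp2l1, a protein of the box C/D particles, was listed at 175, 194 and 146 FPKM, Fbl, their methyltransferase, at 128, 134 and 119 FPKM, and Rrp1 at 135, 138 and 136 FPKM. Past 1.5-fold in affected against unaffected offspring were Nop10, of the box H/ACA particles, at 133, 147 and 94.7 FPKM (-0.63) and Utp20 at 1.72, 1.40 and 2.39 FPKM (0.73). In that comparison 4.91% of all loci were at least 1.5-fold lower and 6.88% at least 1.5-fold higher.

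The enzymes that act on tRNAs beside RNase P likewise held 0 of 23 members past 1.5-fold in any comparison. Over all loci the share past it was 2.46% to 6.88% per comparison and direction. Medians of the 23 enzymes were 0.08 for unaffected minus control, -0.12 for affected minus control and -0.22 for affected minus unaffected. D10Wsu52e, an older symbol of the tRNA ligase Rtcb, was listed at 95.9 FPKM in control, 99.5 FPKM in unaffected and 88.5 FPKM in affected offspring. Hsd17b10, a protein of mitochondrial RNase P, was listed at 92.3, 102 and 69.0 FPKM, Tsen34, of the splicing endonuclease, at 85.5, 94.2 and 80.7 FPKM, and Nsun2, a tRNA methyltransferase, at 19.95, 21.5 and 19.2 FPKM. Divided by the sums without Rn45s, the medians of the tRNA, precursor processing, RNA polymerase I and RNA polymerase III lists became -0.24, -0.28, -0.26 and -0.34 for unaffected minus control, beside -0.32 over all loci. For affected minus unaffected they became 0.09, 0.20, 0.16 and 0.30, beside 0.31 over all loci, so the sign of these medians in both comparisons depends on the scaling, except that the RNA polymerase III list stayed below 0 for unaffected minus control.

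**Figure D5:**
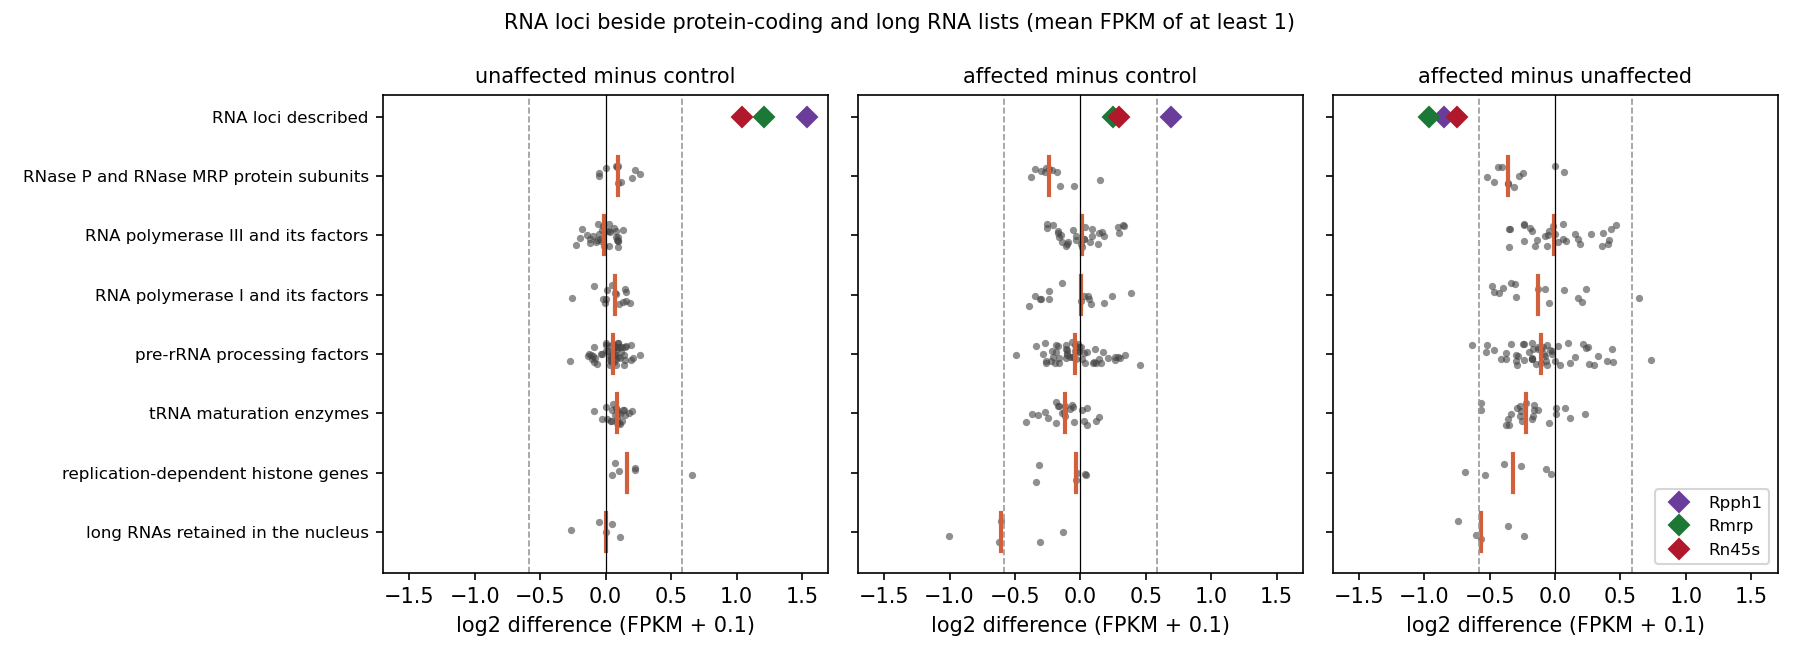
Differences of log2(FPKM + 0.1) (horizontal axes) in 3 comparisons for Rpph1, Rmrp and Rn45s (diamonds) and for the members of 7 gene lists with a mean of at least 1 FPKM (points, with the list's median as a bar), with dashed lines at 1.5-fold. In unaffected minus control the diamonds lie between 1.04 and 1.54, while every point of the protein subunit, polymerase, processing and tRNA lists lies between -0.27 and 0.26.

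Long RNAs that stay in the nucleus and messages of replication-dependent histones were set beside the RNA loci. The latter mostly lack a poly(A) tail, although the library kit selects RNA with one. Of 8 nuclear long RNA loci, 5 had a mean of at least 1 FPKM. Their median was 0.00 for unaffected minus control, where 0 of 5 was past 1.5-fold, and -0.61 for affected minus control, where 3 of 5 were at least 1.5-fold lower, beside 3.01% of all loci. Without the loci that join several gene names, the latter median was -0.31, short of 1.5-fold. These 3 were Rian, at 177 FPKM in control, 177 FPKM in unaffected and 116 FPKM in affected offspring, Meg3, at 17.2, 16.6 and 11.2 FPKM, and Snhg11, at 3.59, 2.98 and 1.74 FPKM. The values of Rian and Meg3 belong to loci that join several gene names. Malat1 was listed at 3.22, 3.48 and 2.93 FPKM, and Miat at 9.69, 10.1 and 7.81 FPKM. None of these 5 shared the order of the RNA loci, since each was lowest in affected offspring.

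Of 62 histone loci, 6 had a mean of at least 1 FPKM. Their deposited spans ran from 537 bases (Hist1h4i) to 8282 bases (Hist1h2bc). Whether the messages read at these 6 loci lacked a tail was not tested. The unaffected value was the highest in 6 of 6, with a median of 0.16 for unaffected minus control. Hist1h4i was past 1.5-fold, at 3.65 FPKM in control, 5.82 FPKM in unaffected and 3.58 FPKM in affected offspring. Hist3h2ba was listed at 141, 164 and 113 FPKM, Hist3h2a at 47.2, 50.7 and 48.3 FPKM, Hist1h2bc at 15.4, 15.9 and 12.1 FPKM, and Hist1h1c at 7.38, 8.64 and 7.20 FPKM. For affected minus control the histone median was -0.03. The median of unaffected minus control became -0.17 when FPKM were divided by the sums without Rn45s.

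The genes next to the small RNA genes were read for their own levels. In the deposited loci Parp2 starts 174 bases from Rpph1 and Ccdc107 305 bases from Rmrp, both on the opposite strand. Parp2, a poly(ADP-ribose) polymerase, was listed at 15.7 FPKM in control, 17.7 FPKM in unaffected and 15.3 FPKM in affected offspring, with unaffected minus control at 0.17. Ccdc107 was listed at 29.8, 32.4 and 20.4 FPKM, with unaffected minus control at 0.12 and affected minus control at -0.55. Neither neighbour was past 1.5-fold against control, but in affected against unaffected offspring Ccdc107 was past 1.5-fold at -0.67, in the direction of Rmrp (-0.97), where 4.91% of all loci were at least 1.5-fold lower. The part of Ccdc107 reads in the values of Rmrp was not tested. Ccnb1ip1, on the strand of Rpph1, was listed at 0.029, 0.053 and 0.014 FPKM for a locus that ends 11718 bases away and does not take in the exon that overlaps Rpph1.

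For each RNA locus, the 5 named loci with the most similar pattern were found by the larger of the gaps in unaffected minus control and in affected minus control (log2 scale). Nearest to Rn45s were Snora17 (0.10), Rmrp (0.17), Prdm12 (0.18), Gal (0.18) and Gbx1 (0.20). Among the nearest to Rmrp were Gbx1 (0.15), Snora17 (0.15), Rn45s (0.17) and Gal (0.35). Rpph1 had no locus as close, and its nearest were Snord42b (0.37), the joined locus of Igf2bp1 and Mir3063 (0.38), Snora17 (0.44), Rmrp (0.45) and Snora28 (0.45). Likeness here rests on 3 group values, and all loci share the same libraries. Unaffected minus control, by which the members were chosen, enters this measure. Their closeness to each other thus follows in part from the choice and supports no claim.

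The loci named Snora17, Snord42b and Snora28 carry the names of small nucleolar RNAs, although as deposited each is longer than such an RNA. Snora17 was listed at 10.02 FPKM in control, 21.5 FPKM in unaffected and 13.2 FPKM in affected offspring over 3069 bases. Snord42b was listed at 96.2, 363 and 159 FPKM over 2649 bases, and Snora28 at 5.64, 22.6 and 11.9 FPKM over 8653 bases. Each had the order control, affected and unaffected. Gal, which encodes the neuropeptide galanin, was listed at 1.51, 2.83 and 1.64 FPKM, the homeobox gene Gbx1 at 0.701, 1.60 and 0.758 FPKM, and Prdm12 at 1.07, 2.02 and 1.23 FPKM.

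Markers of other cells moved with the RNA loci in part. Of 7 fixed red blood cell loci, 6 had a mean of at least 1 FPKM, all 6 were highest in unaffected offspring, and 3 of 6 were at least 1.5-fold higher there than in control, beside 2.46% of all loci. Their summed level was 5616 FPKM in control, 7263 FPKM in unaffected and 3491 FPKM in affected offspring, so that the affected group was the lowest, unlike for the RNA loci. A locus that joins several beta globin genes was listed at 5357, 6924 and 3277 FPKM, and that of the alpha globin genes at 236, 304 and 189 FPKM. Hbb-y, an embryonic globin, was listed at 0.953, 3.34 and 2.56 FPKM, Hba-x at 1.33, 2.58 and 2.29 FPKM, and Alas2 at 18.9, 25.2 and 17.8 FPKM. Slc4a1, below the mean of 1 FPKM, was listed at 0.604, 1.46 and 0.649 FPKM. The part of red blood cells in the values of Rpph1, Rmrp and Rn45s was not tested.

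Regional markers gave unequal values in the groups. Among the 8 cortical markers, Tbr1 was listed at 75.7 FPKM in control, 62.1 FPKM in unaffected and 98.3 FPKM in affected offspring, and Bcl11b at 32.7, 28.2 and 45.5 FPKM, both at least 1.5-fold higher in affected than in unaffected offspring. The summed level of the 8 was 807, 733 and 925 FPKM. Of 5 markers of the ventral telencephalon, Nkx2-1 was past 1.5-fold at 3.51, 5.67 and 3.69 FPKM, and the summed level was 112, 135 and 128 FPKM. Of 4 thalamic markers, 3 had a mean of at least 1 FPKM and Tcf7l2 was past 1.5-fold at 4.18, 2.29 and 2.39 FPKM. Of 5 choroid plexus markers, 4 had that mean, and Clic6 was past 1.5-fold at 4.48, 5.36 and 8.31 FPKM while Ttr was listed at 970, 1291 and 1077 FPKM. The lists of meninges, endothelium and microglia held 0 of 4, 0 of 4 and 0 of 4 past 1.5-fold in any comparison. In affected minus unaffected, endothelial Cdh5 (0.57) and Kdr (0.56) fell just short of it, while Cldn5 was at -0.18. Over all loci 2.46% to 6.88% were past 1.5-fold per comparison and direction, so lists this short hold few or none at that rate. The part of tissue composition in the values of the RNA loci was not tested.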

How the data were processed

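RNA was taken from fetal brain of 9 mice in 3 groups and sequenced as 50-base paired reads from Illumina TruSeq RNA libraries. The authors' processing notes name Bowtie2 2.2.4.0, Cufflinks and Cuffdiff with the mm10 build, and the methods name STAR as well as Bowtie and TopHat. The authors deposited FPKM as 1 value per group and locus for 27095 loci, 3871 of them without a gene name and 351 with joined names. The table has 0 columns for single animals. The deposited fold changes, test statistics, p-values and q-values are the authors' own comparisons and were not used.

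Groups follow the labels. Differences were computed on log2(FPKM + 0.1) in Python 3.11.15 with pandas 2.3.3, over loci with a mean of at least 1 FPKM. A locus counted as higher or lower at 1.5-fold, and the counting was tested on simulated data. Loci were matched by symbol, using the locus of highest mean FPKM, and file starts, which count from 0, were raised by 1. The genes named are the 3 RNA loci, in each list the 4 of highest mean FPKM and up to 8 past 1.5-fold in any comparison, the neighbouring genes and the 5 loci most alike to each member. A few further genes, the unnamed loci and the motifs were picked after their values were seen. Some single genes under this rule are not reported here. Members and lists were chosen with earlier results of these data known. Sequences came from GENCODE M21 and RefSeq GRCm38.p6, whose Rpph1 and Rmrp coordinates equal those of the table. The promoter table had no entry for the 3 members.

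The alternatives were pseudocounts of 0 and 1, subtraction of the overall median, division by the group's FPKM sum without Rn45s, no filter, a mean of at least 5 FPKM, a limit of 2-fold, and removal of joined loci. With no value per animal and no number of fragments per library in the sources used here, no error was computed for any difference.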

Additional observations from a re-analysis of the deposited data

How the results depend on the processing

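The signs of the 9 differences of Rpph1, Rmrp and Rn45s held under pseudocounts of 0 and 1, subtraction of the overall median and division by the FPKM sum without Rn45s. Their side of 1.5-fold held too, except in affected minus unaffected, where division by the sum left Rpph1 at -0.54 and Rn45s at -0.44, short of 1.5-fold. That sum rests largely on unnamed short loci.

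Counts of loci past 1.5-fold moved with the settings. In unaffected against control offspring, 382 higher and 479 lower loci became 240 and 272 with a pseudocount of 1, 183 and 1342 after division by the sum, 679 and 771 with no filter, 131 and 133 at a mean of at least 5 FPKM, and 158 and 189 at 2-fold. In affected against control offspring, 532 higher and 468 lower loci became 313 and 281 with a pseudocount of 1, 992 and 838 with no filter, 134 and 171 at a mean of at least 5 FPKM, and 184 and 169 at 2-fold. In affected against unaffected offspring, 1070 higher and 764 lower loci became 629 and 489 with a pseudocount of 1, 3487 and 229 after division by the sum, 436 and 405 at a mean of at least 5 FPKM, 1599 and 1183 with no filter, and 284 and 172 at 2-fold. Stricter filters and limits count fewer loci by construction.

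Of 30 list medians, 20 moved by at least 0.1 after division by the sum, 8 with no filter, 4 at a mean of at least 5 FPKM, 3 with a pseudocount of 0, 2 without joined loci and 1 with a pseudocount of 1. No paired analysis was possible because the table holds 1 pooled value per group, and no fetus was left out for the same lack of single values.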
